A study of Homo sapiens with 4 samples.

Results

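Receptor tyrosine kinases are cell-surface proteins that bind a growth factor or a membrane-bound ligand outside the cell, pair up and phosphorylate each other and their adaptors inside it. In gastric epithelium the EGF receptor and MET are known for driving proliferation and wound repair, and their transcripts are translated, stabilised or degraded under many layers of control. One of these layers is N6-methyladenosine (m6A), a methyl mark on adenosines inside messenger RNA that is read by RNA-binding proteins and is typically dense near stop codons and in long exons. Listed m6A peaks were described here in 7 genes: the receptors EGFR, ERBB2 and ERBB3 of the ERBB family, MET (the hepatocyte growth factor receptor), AXL (the GAS6 receptor) and EPHA2 (an ephrin-A receptor), and ERRFI1, which encodes an intracellular inhibitor of ERBB kinases. Members were the peaks whose summit, the highest point of a peak, lay inside one of 7 gene spans set to the nearest kilobase on hg19. They numbered 14 of 52188 peaks in cells given chenodeoxycholic acid (CDCA) and 26 of 63093 in control cells.

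The series comprised 4 libraries from GES-1, which the labels give as a gastric epithelial cell line: an m6A immunoprecipitation and an input library from cells given 100 µM CDCA, a primary bile acid, for 48 h, and the same pair from cells left without treatment. It asked which m6A sites differ under the bile acid. The peaks of both immunoprecipitation libraries were used and the inputs were not analysed here, so the identity of the cells and the level of each transcript were not checked. Each condition had 1 library and no replicate, so differences between conditions were not testable, and treatment and library cannot be told apart. All 95% intervals are exact and cover counting error only, and reads that are PCR copies of each other would make them too narrow. Those of peak shares also treat peaks of the same gene as independent, which can have the same effect.

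The spans were chromosome 7 from 55086000 to 55280000 for EGFR and from 116312000 to 116439000 for MET, both on the plus strand. On the plus strand too were ERBB2 on chromosome 17 (37844000 to 37885000), ERBB3 on chromosome 12 (56473000 to 56498000) and AXL on chromosome 19 (41725000 to 41768000). On the minus strand of chromosome 1 were ERRFI1 (8064000 to 8087000) and EPHA2 (16450000 to 16483000). No hg19 gene annotation was used here, so exons, introns and untranslated regions are not assigned and positions are given as distances from the ends of these spans. A span may run some kilobases past the end of its gene, in particular at the 3′ ends of EGFR and ERRFI1, so a distance from a span's end is not a distance from the transcript's end. The lists carry no strand. In RefSeq's GRCh38.p14 gene table, used for names alone, EGFR-AS1 overlaps EGFR, COMETT overlaps MET, EPHA2-AS1 overlaps EPHA2, and MIEN1 and MIR4728 overlap ERBB2, so a peak in those spans may belong to such a transcript.

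**Figure D1:**
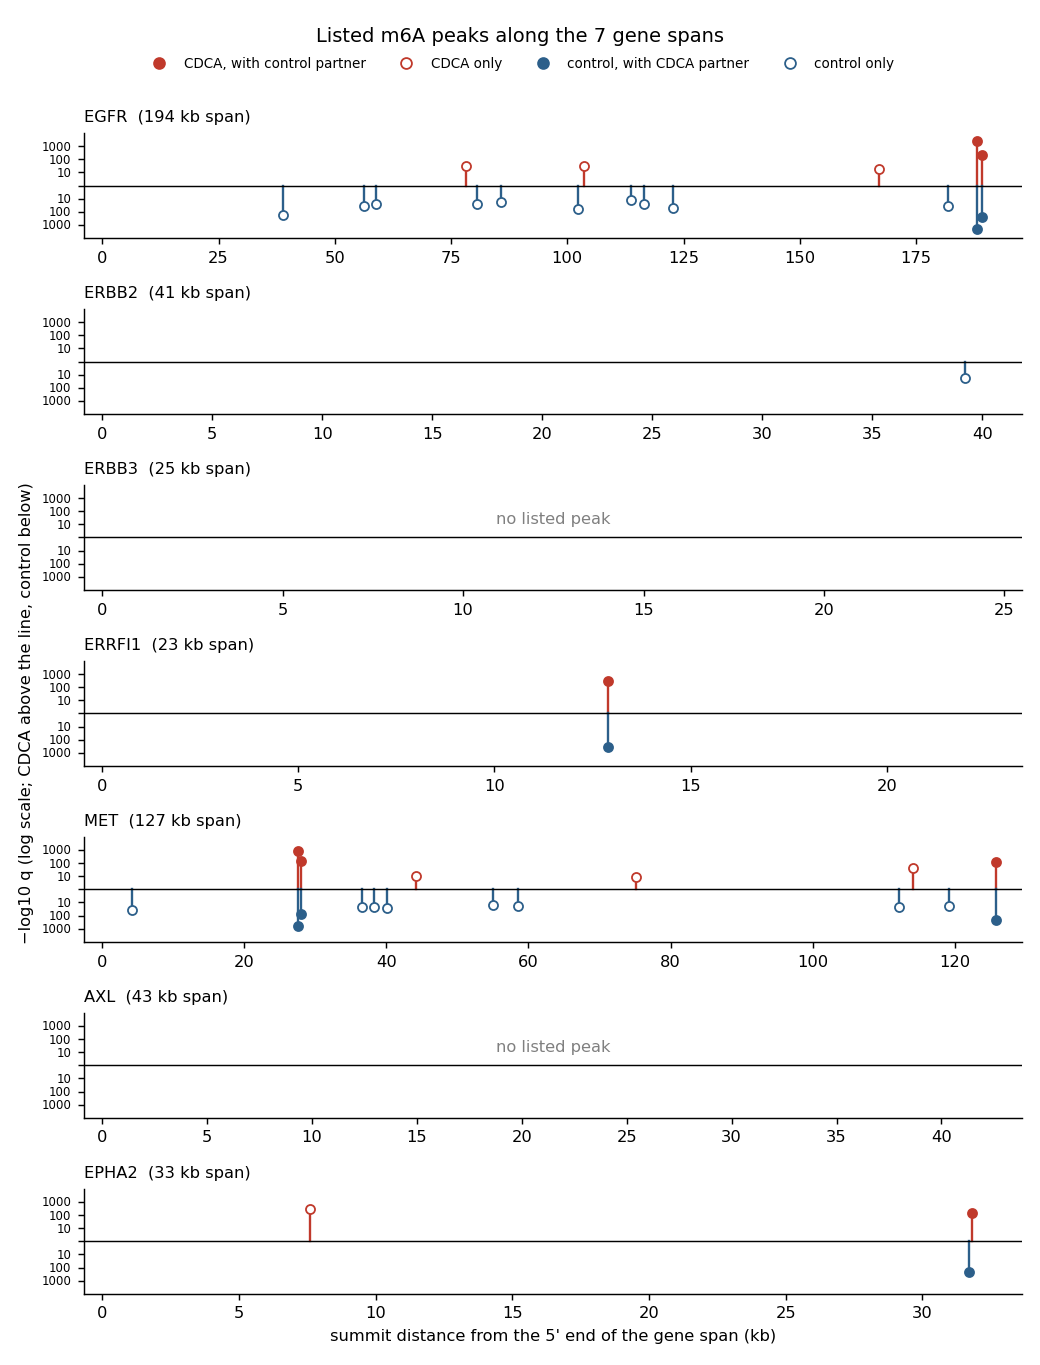
Listed m6A peaks by distance of the summit from the 5′ end of each gene span (kb, horizontal axis) and by −log10 q (vertical, log scale), with CDCA above and control below the line. Filled circles have a partner in the other list: 2 sites in EGFR, 3 in MET and 1 each in ERRFI1 and EPHA2, and ERBB3 and AXL are empty.

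CDCA-treated cells had listed m6A peaks in EGFR, MET, EPHA2 and ERRFI1, and control cells had them in these genes and in ERBB2. EGFR held 5 peaks in CDCA and 12 in control, MET 6 and 11, EPHA2 2 and 1, ERRFI1 1 and 1, and ERBB2 0 and 1. ERBB3 and AXL had none in either list. The CDCA list thus made up 35.0% (20.6 to 51.7) of the 40 member peaks, beside 45.3% of all 115281 peaks, and the interval includes the level of the whole lists. The 14 CDCA peaks covered 7235 bp and the 26 control peaks 10306 bp. Absence from a list does not show that a site was unmethylated, since it may have missed the authors' thresholds. In bulk RNA, fewer methylated molecules, less of the transcript and fewer cells carrying it cannot be told apart.

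A site was called shared where peaks of both lists overlapped by at least 1 bp. Of the CDCA peaks, 7 of 14 (50%, 23.0 to 77.0) had a control partner, beside 22.2% of the whole CDCA list. Of the control peaks, 7 of 26 (26.9%, 11.6 to 47.8) had a CDCA partner, beside 18.2% of the whole control list. Peak significance is given as −log10 of the q-value. The level of 100 used to split the peaks was picked with the values in view. At or above it, 7 of 8 CDCA peaks (87.5%, 47.3 to 99.7) and 6 of 7 control peaks (85.7%, 42.1 to 99.6) were shared, beside 91.2% and 87.6% of all peaks that strong. Below it, 0 of 6 CDCA peaks (0 to 45.9%) and 1 of 19 control peaks (5.26%, 0.133 to 26.0) were shared, beside 16.3% and 12.3%. Without the split, the interval of the control share held the level of its list, and that of the CDCA share lay just above its own. The CDCA interval treats the 14 peaks as independent, though 5 lay in EGFR and 6 in MET. It may thus be too narrow, and no excess of sharing is read from it. Within each of these strength classes, the interval of the member share held the level of the list. The unshared peaks above 100 were an EPHA2 peak in CDCA (268) and an EGFR peak in control (160).

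**Figure D2:**
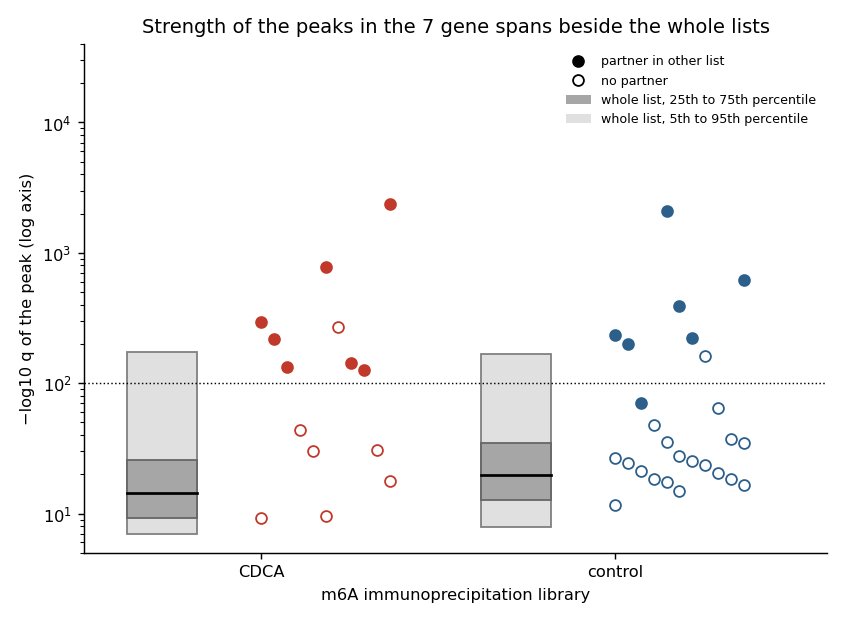
−log10 q of each member peak (log axis), with CDCA left and control right, beside bars for the 5th to 95th and 25th to 75th percentile of the whole list, whose median is the black line. Above the dotted line at 100, 7 of 8 CDCA and 6 of 7 control peaks are filled, meaning that they have a partner.

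As a group the member peaks were longer and stood on a higher local background than the lists. Their median length was 466.5 bp in CDCA and 282.5 bp in control, beside 224 and 228 bp over the whole lists. The local background, the height the peak caller expected at the summit, was recovered from summit height and fold enrichment. Its median was 18.7 in CDCA and 5.06 in control over the member peaks, beside 1.0 and 1.36 over the lists. Fold enrichment is the summit height plus 1 over that background plus 1. Its median was close to the lists: 9.03 in CDCA and 8.78 in control, beside 8.63 and 9.67. Median −log10 q was 130.4 in CDCA and 31.1 in control, beside 14.4 and 19.9. These medians mix different sites in the 2 lists and show no change at any one site.

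EGFR, the receptor for EGF, TGF-alpha and amphiregulin, carried the most significant peak of the 7 genes in both lists. This first EGFR site lay near the 3′ end, at 55273107 to 55274284 in CDCA and 55273130 to 55274676 in control. Its summits were 9 bp apart and lay 5.9 and 6.0 kb from the 3′ end of the span. Its height was 2337 in CDCA and 2158 in control over local backgrounds of 85.0 and 90.0, which gave fold enrichments of 27.2 and 23.7. By −log10 q, 2382 in CDCA and 2076 in control, it ranked 75th in the CDCA list and 112th in the control list. The same site was therefore prominent in both libraries, with a fold ratio of 1.15 (CDCA over control). The peak spanned 1178 bp in CDCA and 1547 bp in control.

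A second EGFR site followed downstream of the first, at 55275001 to 55275303 in CDCA and 55275047 to 55275340 in control. Its height was 359 in CDCA and 362 in control, its fold enrichment 9.70 and 10.9, and its −log10 q 216.5 and 236. Height is a whole number of steps in each list, 0.640 per step in CDCA and 0.862 in control, taken here as 1 fragment each. On that reading the first EGFR summit rested on 3653 fragments in CDCA and 2502 in control, and the second on 562 and 420. The first was 6.5 times (5.95 to 7.12) the second in CDCA and 5.96 times (5.37 to 6.62) in control. These intervals overlap, which does not show that the ratios were equal. A difference in the balance between the 2 EGFR sites was not tested.

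The remaining EGFR peaks lay upstream of that 3′ pair and were listed in 1 library each, 3 in CDCA and 10 in control. The CDCA-only peaks had −log10 q of 30.6, 30.4 and 17.7 and lay 78.3, 103.6 and 167.1 kb from the 5′ end. The control-only peaks had −log10 q between 11.7 and 160, and 9 of the 10 lay between 38.8 and 122.7 kb from the 5′ end. The strongest of them, at 55124709 to 55125031, had a height of 186, a fold enrichment of 17.3 and a −log10 q of 160. Its nearest CDCA peak was 39212 bp away. The closest approach between unshared EGFR peaks was 935 bp, between CDCA at 55189431 to 55189658 and control at 55188000 to 55188496. EGFR thus had a pair of 3′ sites listed in both libraries and a set of weaker upstream peaks with no overlap between them. Lack of a partner is common among weak peaks. Of all peaks with a −log10 q below 100, 16.3% in CDCA and 12.3% in control had one. The control-only peak with a −log10 q of 160 was not in that class. At 100 or above, 87.6% of all control peaks had a partner.

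MET, the receptor for hepatocyte growth factor, had 3 shared sites at opposite parts of the gene. Sites 1 and 2 lay 27.5 and 28.0 kb from the 5′ end, and site 3 lay 1.2 kb from the 3′ end. Site 1, at 116339227 to 116339643 in CDCA and 116339137 to 116339616 in control, had a height of 623 in CDCA and 552 in control. Its fold enrichments, 43.3 in CDCA and 32.9 in control, were the highest of all member peaks in their lists, and its −log10 q was 773 and 616. Site 2, at 116339840 to 116340358 in CDCA and 116339843 to 116340354 in control, had a height of 238 in CDCA and 166 in control, a fold of 9.56 and 6.17, and a −log10 q of 142 and 71.0. Both inner sites were thus higher in the CDCA list, by height and by fold. The control fold of site 2 was close to the lowest in that list, 6.0.

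MET site 3 went the other way. It was listed at 116437638 to 116438430 in CDCA and at 116437638 to 116438433 in control, so both peaks began at the same base. Its height was 272 in CDCA and 297 in control, its fold 6.84 and 11.4 and its −log10 q 127 and 199. The fold ratio (CDCA over control) was 1.32 at site 1, 1.55 at site 2 and 0.597 at site 3. Height alone differed less at site 3, with a ratio of 0.918, and the local background there was 39.0 in CDCA and 25 in control. Backgrounds moved in steps of 0.02 or stood at the lowest level of their list. This is the pattern of input fragments counted in windows of 200 bp, 1 kb and 10 kb. If the background of site 3 was counted in 200 bp, its 95% Poisson intervals were 27.7 to 53.3 in CDCA and 16.2 to 36.9 in control. The fold difference at site 3 rests largely on this background. With that window, the intervals of this background overlap between the lists. A wider window would make them narrower and was not computed, and the difference in background was not tested.

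Ratios of heights within a gene do not depend on how a whole library was scaled. Site 1 of MET was 2.29 times (2.04 to 2.57) as high as site 3 in CDCA and 1.86 times (1.63 to 2.13) in control, with overlapping intervals. Site 2 was 0.873 times (0.758 to 1.01) as high as site 3 in CDCA and 0.558 times (0.465 to 0.668) in control. The intervals for site 2 do not overlap. Site 1 was 2.62 times (2.32 to 2.96) as high as site 2 in CDCA and 3.33 times (2.83 to 3.94) in control, with intervals that overlap. The comparison of site 2 with site 3 was picked out after its values had been seen, and variation between cultures is not in the intervals. Of the 3 pairs of MET sites, 1 thus had intervals that did not overlap between the libraries. Overlapping intervals do not show that the other ratios were equal, and no difference between ratios was tested.

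**Figure D3:**
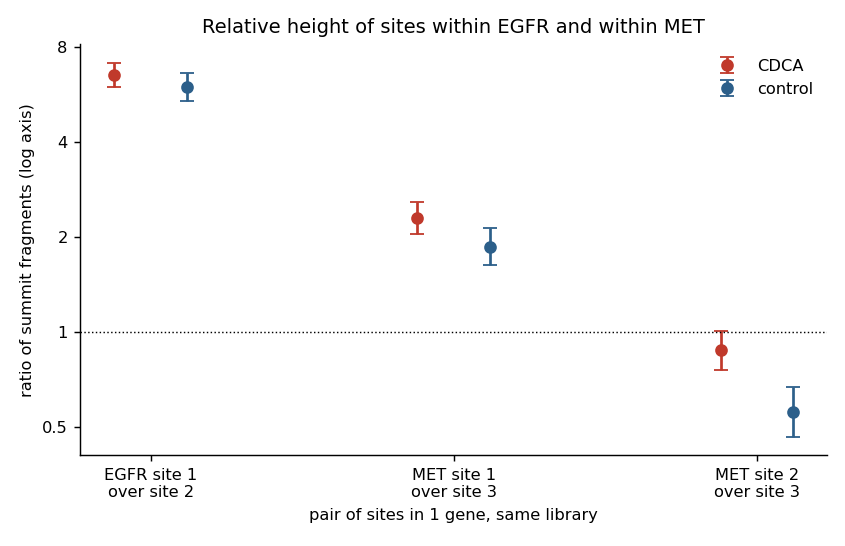
Ratio of summit fragments between 2 sites of the same gene in the same library (log axis), with CDCA left of control in each pair and bars for exact 95% counting intervals. The intervals overlap for EGFR site 1 over site 2 and for MET site 1 over site 3, and do not for MET site 2 over site 3 (0.873 in CDCA and 0.558 in control).

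The unshared MET peaks were 3 in CDCA and 8 in control, all of them weaker than a −log10 q of 50. The strongest CDCA-only peak, at 116425742 to 116426257, had a height of 53.7, a fold of 13.8 and a −log10 q of 44.0, with 84 fragments at its summit. The remaining CDCA-only peaks had heights of 14.7 and 12.2 and a −log10 q of 9.59 and 9.29. Both values were below the median of the CDCA list (14.4, lowest 5.78). The strongest control-only peak lay 4.2 kb from the 5′ end, at 116315767 to 116316332, with a height of 52.6, a fold of 11.2 and a −log10 q of 37.6. The other control-only peaks had −log10 q between 14.9 and 25.2 and rested on 32 to 43 fragments.

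ERRFI1, the feedback inhibitor that binds the kinase domain of EGFR and its relatives, had 1 shared site and no other peak. It lay at 8073195 to 8074266 in CDCA and 8073567 to 8074260 in control, with summits 6 bp apart and 12.9 kb from the 5′ end of the span. Its height was 535 in CDCA and 629.6 in control over backgrounds of 62.0 and 61.4. Its fold was 8.50 in CDCA and 10.1 in control and its −log10 q 293 and 388. The ratio of folds (CDCA over control) was 0.841. The CDCA peak was 1072 bp long and contained the whole control peak of 694 bp.

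EPHA2, a receptor for ephrin-A ligands on neighbouring cells, had 1 shared site near its 3′ end and a strong site listed in CDCA alone. The shared site, at 16451134 to 16451788 in CDCA and 16451125 to 16451807 in control, lay 1.2 and 1.3 kb from the 3′ end. Its height was 316 in CDCA and 467 in control over backgrounds of 50.8 and 64.8, with a fold of 6.12 and 7.11. Its height ratio of 0.677 (CDCA over control) was the lowest of the 7 shared sites, and its −log10 q was 134 in CDCA and 224 in control. The CDCA fold of this site was close to the lowest in the CDCA list, 6.0.

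The CDCA-only site of EPHA2 lay 7.6 kb from the 5′ end, at 16474852 to 16475581. It had a height of 614 from 960 fragments, a −log10 q of 268 and rank 1712 in the CDCA list, which made it the most significant unshared member peak of either list. Its background was 96 and its fold 6.34, close to the lowest fold listed in either library, which was 6.0. The nearest control peak was 23045 bp away. No value of the control list at this site was listed, so its height there is unknown.

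ERBB2, the ligandless partner of the other ERBB receptors, had no CDCA peak and 1 weak control peak. The control peak lay at 37883112 to 37883311, 1.8 kb from the 3′ end, with a height of 24.2 (28 fragments), a fold of 8.73 and a −log10 q of 16.6. ERBB3, the neuregulin receptor with little kinase activity of its own, and AXL had no listed peak in CDCA or control. The nearest listed summits lay 9.5 kb (CDCA) and 13.4 kb (control) beyond the 3′ end of ERBB3, and 12.1 and 19.1 kb beyond that of AXL. Whether these transcripts were present could not be read from peak lists, since a gene with few reads can show no peak at any level of methylation.

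Across the 7 shared sites, fold enrichment was higher in CDCA at 3 (EGFR site 1 and MET sites 1 and 2) and lower at 4 (EGFR site 2, ERRFI1, MET site 3 and EPHA2). Height was higher and lower at the same sites. The median fold ratio (CDCA over control) was 0.890, beside 0.925 over all 11870 overlapping pairs of the lists. The median height ratio was 0.992, beside 0.845. A fold at least 1.5 times higher in CDCA was found at 1 of the 7 sites (MET site 2), beside 19% of all pairs. A fold at least 1.5 times lower was found at 1 (MET site 3), beside 27.8%. Of all pairs, 22.2% had a lower fold ratio than MET site 3 and 82.6% a lower one than MET site 2, with the other sites between. The fold ratios of these sites thus lay within the common range of all pairs. Most of those pairs were weaker: 7822 of the 11584 shared CDCA peaks had a −log10 q below 100, and none of the 7 sites did in CDCA. In control, 7173 of the 11466 shared peaks were below 100, and so was MET site 2 (71.0). Pairs of matched strength were not compared.

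**Figure D4:**
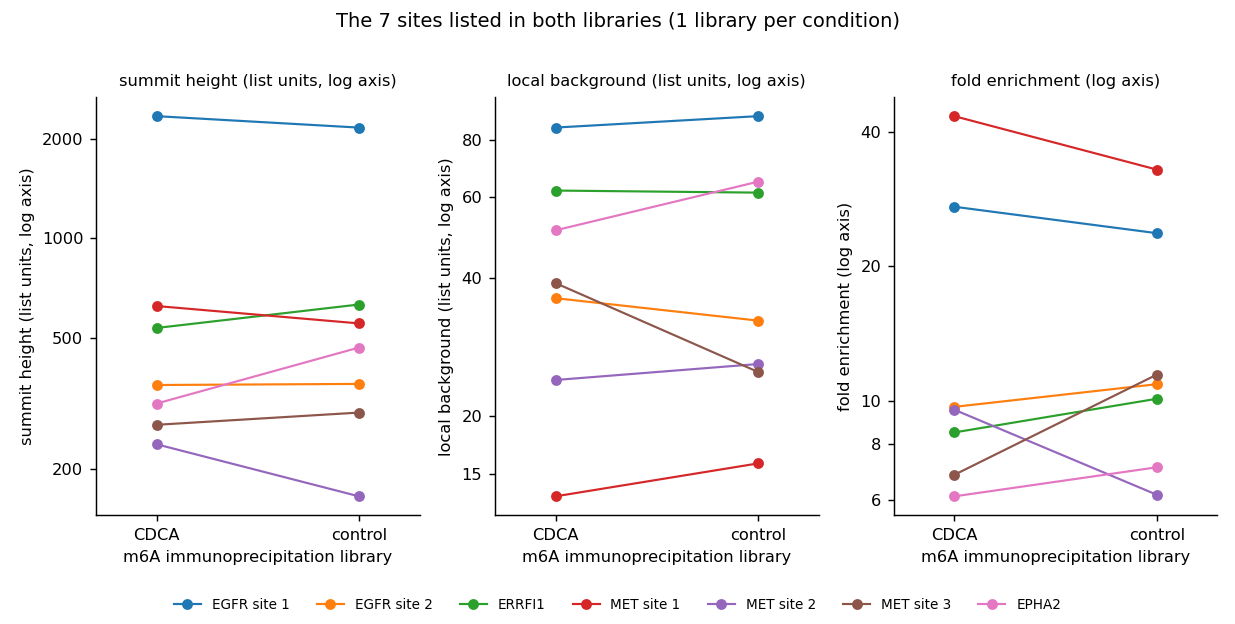
Summit height, local background and fold enrichment (log axes) at the 7 shared sites, with CDCA left and control right and a line joining the values of a site. The lines for MET site 2 (fold 9.56 in CDCA and 6.17 in control) and MET site 3 (6.84 and 11.4) cross in the fold panel.

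**Figure D5:**
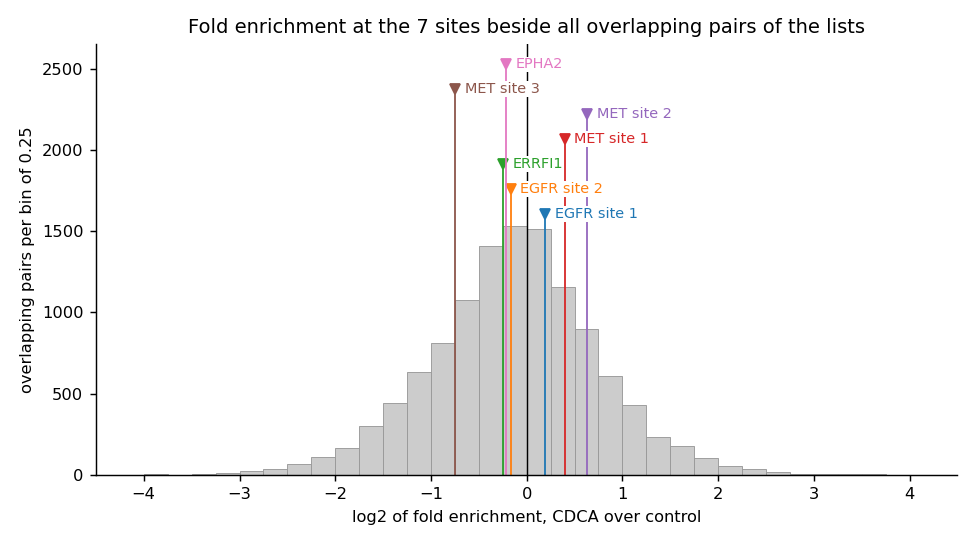
Number of overlapping pairs of the whole lists by log2 of fold enrichment, CDCA over control (bins of 0.25), with the 7 shared sites marked by vertical lines. The marked sites run from -0.74 (MET site 3) to 0.63 (MET site 2), within the bulk of the 11870 pairs.

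The summits of shared sites were placed closely in both libraries. Their distances were 9 and 27 bp in EGFR, 6, 15 and 65 bp in MET, 6 bp in ERRFI1 and 66 bp in EPHA2. The median was 15 bp, beside 51 bp over all pairs, most of which were weaker. Here too, pairs of matched strength were not compared. Shared sites lay nearer the 3′ than the 5′ end of the span in EGFR, ERRFI1 and EPHA2 and at site 3 of MET, and nearer the 5′ end at sites 1 and 2 of MET. The spans set membership, and few peaks lay at their borders. Just inside were the 3′ sites of MET, EPHA2 and ERBB2, at 1.2 to 1.8 kb from the end. Just outside lay a CDCA peak 2.9 kb before EPHA2 (−log10 q 9.32), another 3.8 kb beyond the 3′ end of the ERRFI1 span (11.8), a control peak 4.4 kb after MET (9.08) and a CDCA peak 4.8 kb before ERBB2 (27.3).

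Peak numbers gave a further view of unlisted sites. Numbers follow position along each chromosome, and both lists skip some: 52.1% of the numbers up to the highest are listed in CDCA and 57.3% in control. Of the member peaks without a partner, 5 of 7 in CDCA and 15 of 19 in control lay where the other list had skipped at least 1 number, beside 63.2% and 73.2% of all unshared peaks. The CDCA-only site of EPHA2 lay where the control list skipped 6 numbers, and the strongest control-only site of EGFR where the CDCA list skipped 13. A skipped number gives no position within such a gap. The other 2 CDCA-only and 4 control-only peaks were all in MET, where the neighbours in the other list had consecutive numbers and no peak had been numbered between them. Among them were the strongest CDCA-only MET peak (84 fragments) and the strongest control-only one (61 fragments). In ERBB3, which had no listed peak, the flanking peaks left room for at most 1 numbered peak in CDCA and 2 in control, and in AXL for at most 4 and 6.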

How the data were processed

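The deposited data were 1 table of m6A peaks per immunoprecipitation library, with positions counted from 1. Per the file headers, each peak has a pileup (a signal: its height), significance as −log10 of a p-value and of a q-value, and fold enrichment (a ratio). These values are the authors' own, made per library without pooling. TopHat2 2.0.13 and MACS2 2.1.0 are listed in the submitters' processing notes, with the build hg19. For the peak thresholds, a value is not given in the sources used here. Summit heights were whole steps for 100% of peaks (tolerance 0.02 steps), at least 15 in CDCA and 12 in control. Read depth is unknown.

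Peaks were assigned to genes by summit and paired across lists by an overlap of 1 bp or more. All peaks of the 7 genes were counted, and those given in full were each gene's most significant peak per list, every shared peak and the most significant unshared ones. Local background was height plus 1, over fold, minus 1. A Poisson tail with this background matched the deposited −log10 p to 2% in 100% of CDCA and 99.9% of control peaks under a −log10 p of 200. Intervals are Clopper-Pearson for shares and exact Poisson for fragments. The genes and lists were chosen with earlier results of these data known. Pathway partners, cell type markers and site sequences were not analysed here, as no hg19 annotation or genome was used. Overlap and assignment were tested on 20000 simulated peaks, of which 100% were answered rightly. The software was Python 3.11.15 (numpy 2.4.6, pandas 2.3.3, scipy 1.17.1) with plots from matplotlib 3.10.9.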

Additional observations from a re-analysis of the deposited data

How the results depend on the processing

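Of the alternatives set out for the counts, the shares and the median ratio, those that required a −log10 q of 20 or more, used equal numbers of peaks, assigned peaks by any base or shortened the spans by 2 kb left the total counts within 1.5 times. Counts of single genes moved further: the control peak of ERBB2 was lost at a −log10 q of 20 and with shortened spans, and the shorter spans also lost site 3 of MET and the shared EPHA2 site, which left EPHA2 with 1 CDCA and 0 control peaks. With a fold of at least 10, EPHA2 and ERBB2 kept no peak in either list, and ERRFI1 kept only its control peak. In total, 5 CDCA and 10 control peaks remained. Of these, 40% (5.27 to 85.3) in CDCA and 50% (18.7 to 81.3) in control were shared, beside 37.9% and 25.5% of all peaks at that fold. The CDCA count stayed between 50% and 55.0% of the control count throughout. Shared members were the same in number (7 in each list) when both peaks had to overlap by 50% or summits had to lie within 100 bp, beside 15.7% of all CDCA and 13% of all control peaks under either. The median ratio at shared sites was 1.06 with height divided by the lowest background of its list, a scaling that moves all pairs alike (0.905 over all pairs), so it bears on the scale and not on these sites. An alternative chosen after seeing the data took heights minus local background: MET site 1 over site 3 became 2.61 in CDCA and 1.97 in control, and site 2 over site 3 became 0.916 and 0.514. The CDCA value for site 1 over site 3 lay above its interval from heights as deposited (2.04 to 2.57). The others stayed inside theirs, so the ratio of site 1 to site 3 depends on how background is treated. Leaving out a library was not possible with 1 per condition. No paired analysis was possible because the labels carry no replicate numbers and each condition has 1 library. The weakest listed summits rest on 15 fragments in CDCA and 12 in control, so weaker sites could not be seen.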
